A study of Rattus norvegicus with 7 samples.

Results

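Caspases, the caspase-8 homolog FLIP (gene Cflar) and the inflammasome adaptor ASC (gene Pycard) were examined in rat oral epithelial cells exposed to sodium fluoride (NaF). The genes were Casp8, Casp9 and Casp6, whose products act in apoptosis, Casp1, Casp4 and Casp12, which are grouped as inflammatory caspases, and Cflar and Pycard. Every probe set annotated with 1 of these 8 symbols was taken, which gave 12 of the 31099 probe sets on the array, for 8 of the 14218 genes with a probe set of a single symbol. At 12 h of NaF, Casp4, Casp12 and Cflar were higher than in vehicle, Casp6 and Pycard were lower, and Casp8, which was lower at 6 h, was within the range of the vehicle arrays on both of its probe sets.

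The cells were the ROE2 line, an epithelial line with an infinite life span from the tongue of an 18-day-old fetus of a transgenic Wistar rat that carries a temperature-sensitive SV40 large T-antigen gene. All 7 arrays came from these cells, so NaF-exposed and vehicle cells shared the transgene, and all were moved to 37 °C for 24 h before exposure. The NaF groups received 2 mM NaF for 3, 6 and 12 h, and the vehicle group received sterilized water and was sampled at 0, 3, 6 and 12 h. Each group and time was 1 Affymetrix Rat Genome 230 2.0 array hybridised with RNA pooled from 3 independent experiments, so that no array has a replicate and the spread between experiments cannot be seen.

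Caspases are cysteine proteases that cells make as inactive precursors. In apoptosis, initiators such as caspase-8 (at death receptors) and caspase-9 (on the Apaf1 apoptosome) activate executioners, and caspase-6 cleaves nuclear lamins. FLIP resembles caspase-8 but lacks enzyme activity, binds to the same death receptor complex and restrains caspase-8 there. Inflammasomes are another kind of platform, on which ASC links a sensor to caspase-1, which matures interleukin-1β and interleukin-18. Rodent Casp4, called caspase-11 in mice, responds to bacterial lipopolysaccharide in the cytosol and cleaves gasdermin D. Rodent caspase-12 lies at the endoplasmic reticulum (ER) and was described in mice as a caspase of ER stress. Transcript levels, which the arrays measure, say nothing of whether a caspase is cleaved or active.

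Promoter sequence from RefSeq (GRCr8), 250 bases before and 50 bases after the start of each gene, was found for 6 of the 8 genes. Those of Casp12 and Cflar are shown because both genes were higher at 12 h, that of Casp1 because it holds the same motif while its signal stayed at the low end in every array, and that of Pycard because its signal fell the most of the 6 genes tested. The capitals mark a match to GAAANNGAAA, the core of the interferon-stimulated response element (ISRE), here read on the opposite strand. The Casp12 promoter lies at chr8:10926938-10927237 (+ strand), the Cflar promoter at chr9:67679299-67679598 (+ strand), the Casp1 promoter at chr8:10872580-10872879 (+ strand) and the Pycard promoter at chr1:192033370-192033669 (- strand), each printed 5′ to 3′ along its gene.
Casp12: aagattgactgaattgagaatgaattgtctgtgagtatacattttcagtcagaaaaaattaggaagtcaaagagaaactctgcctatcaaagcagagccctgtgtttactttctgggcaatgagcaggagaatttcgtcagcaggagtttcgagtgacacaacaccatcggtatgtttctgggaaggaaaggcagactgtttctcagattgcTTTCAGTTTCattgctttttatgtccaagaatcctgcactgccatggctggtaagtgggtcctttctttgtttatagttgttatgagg
Cflar: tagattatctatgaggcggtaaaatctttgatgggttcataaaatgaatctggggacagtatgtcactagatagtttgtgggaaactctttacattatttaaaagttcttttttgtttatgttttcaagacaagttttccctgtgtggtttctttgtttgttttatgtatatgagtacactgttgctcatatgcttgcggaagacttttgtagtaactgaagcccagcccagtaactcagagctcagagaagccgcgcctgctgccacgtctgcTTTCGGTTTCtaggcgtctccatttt
Casp1: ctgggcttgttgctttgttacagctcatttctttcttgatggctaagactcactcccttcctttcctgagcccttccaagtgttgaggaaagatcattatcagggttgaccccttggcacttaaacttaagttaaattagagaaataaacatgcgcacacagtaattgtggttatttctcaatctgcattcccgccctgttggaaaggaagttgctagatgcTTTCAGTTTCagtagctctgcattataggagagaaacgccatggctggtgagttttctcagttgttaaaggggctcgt
Pycard: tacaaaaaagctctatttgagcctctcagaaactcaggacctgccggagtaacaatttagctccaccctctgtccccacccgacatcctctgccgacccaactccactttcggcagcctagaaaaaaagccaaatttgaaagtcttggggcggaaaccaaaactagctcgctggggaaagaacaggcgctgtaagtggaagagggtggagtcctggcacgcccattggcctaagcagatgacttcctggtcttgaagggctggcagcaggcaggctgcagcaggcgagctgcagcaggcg

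The ISRE core matched once in each of 3 of the 6 promoters, at bases 213 to 222 of Casp12, 275 to 284 of Cflar and 223 to 232 of Casp1, counted from 1 at the 5′ end. The matched letters in Casp12 and Casp1 were the same. Among all 33469 promoters of the same length, 3.92% held this core on either strand. Other motifs were searched on both strands, namely TGANTCA (AP-1, in 7.33% of all promoters), TGATGNAA (C/EBP-ATF, in 3.98%), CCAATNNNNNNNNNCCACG (the ER stress response element, in 0.0657%) and kappaB (in 4.18%), and none of their letters was in the 6 windows. The promoters of Casp6, Casp9 and Pycard held none of the 5 motifs. The motifs were chosen with the expression values known, and a match is a stretch of letters, not a measured site. In the same annotation Casp1, Casp4 and Casp12 were neighbours on chromosome 8, and Cflar and Casp8 were neighbours on chromosome 9.

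The array values were log2 signals with medians of 5.32 to 5.35 per array, and signals of different probe sets are not compared as levels, since probe sets differ in how brightly they report. Each NaF array was set against the mean of the 4 vehicle arrays with limma, taking the spread from the vehicle arrays alone and assuming that a lone NaF array varies like them. A probe set was tested if its highest log2 signal in any array was at least 7, which 11769 probe sets reached, and was called at an adjusted p under 0.05 over all of these. The difference from the time-matched vehicle array is given beside it, without a test. Of the 12 probe sets, 8 from 6 genes were tested. Casp4 and both Cflar probe sets, 3 of these 8, reached the signal limit only in NaF arrays, so their highest signal was bound to lie there. The 3 Casp9 probe sets and the Casp1 probe set stayed under the limit. The vehicle arrays correlated with each other at r of 0.9961 to 0.9987, which describes all probe sets of pooled RNA.

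**Figure D1:**
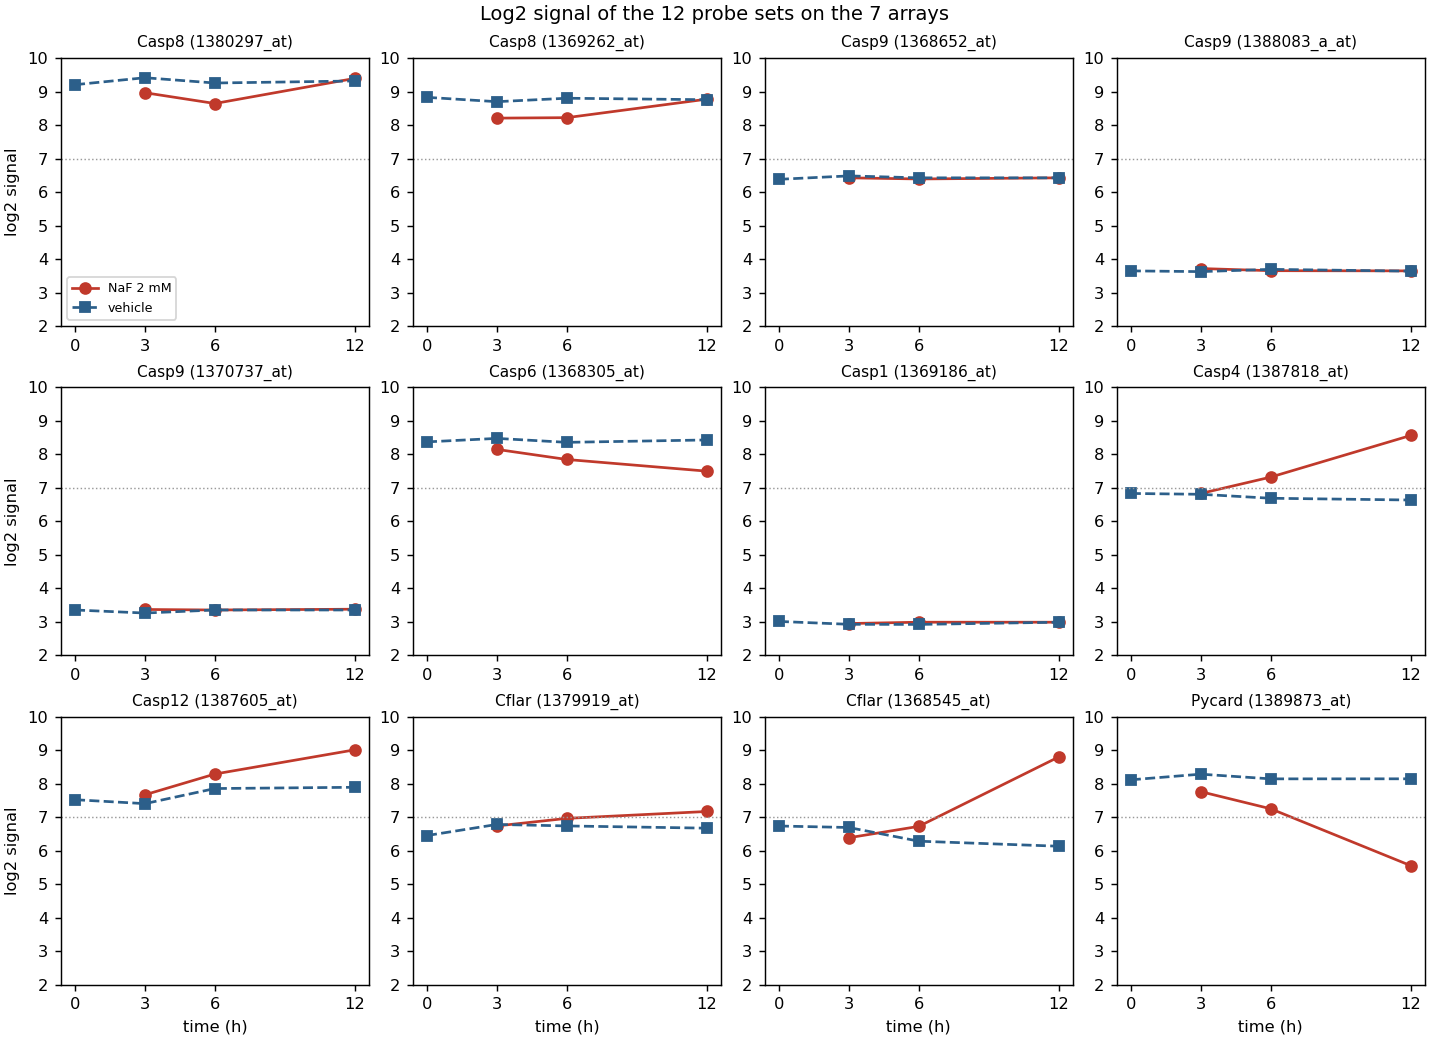
Log2 signal (vertical axis) of each of the 12 probe sets against time in h (horizontal axis), in the NaF arrays (red circles) and the vehicle arrays (blue squares), 1 array a point with no error bar; the dotted line is the signal limit of 7. Casp4, Casp12 and Cflar 1368545_at separate upwards and Pycard and Casp6 downwards, while Casp9 and Casp1 lie on the vehicle values.

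Casp8, the initiator caspase of death receptors, was lower early and was not lower at 12 h. Its probe set 1369262_at read 8.21, 8.22 and 8.77 in NaF at 3, 6 and 12 h, against 8.83, 8.70, 8.80 and 8.76 in vehicle at 0, 3, 6 and 12 h. Its probe set 1380297_at read 8.97, 8.64 and 9.39 in NaF, against 9.21, 9.41, 9.26 and 9.32 in vehicle. On both probe sets the NaF arrays of 3 and 6 h lay under every vehicle array, and those of 12 h lay within the vehicle range. In limma the change at 6 h was -0.55 ± 0.07 (SE) for 1369262_at and -0.65 ± 0.09 for 1380297_at (adjusted p = 0.0035 and 0.0041). At 3 h it was -0.56 ± 0.07 for 1369262_at (adjusted p = 0.012) and -0.33 ± 0.09 for 1380297_at (adjusted p = 0.092), so only the first was called. Leaving out vehicle at 6 h (adjusted p = 0.068) or at 12 h (adjusted p = 0.055) ended the 3 h call. At 12 h limma gave 0.00 ± 0.07 and 0.10 ± 0.09, neither of them called (adjusted p = 0.99 and 0.41). Relative to the time-matched vehicle the differences were -0.49, -0.58 and 0.02 at 3, 6 and 12 h for 1369262_at and -0.45, -0.61 and 0.08 for 1380297_at.

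Casp6, the executioner that cleaves lamins, was lower in NaF at each time and the gap widened. It read 8.15, 7.85 and 7.50 in NaF at 3, 6 and 12 h, against 8.37, 8.48, 8.36 and 8.43 in vehicle at 0, 3, 6 and 12 h. All 3 NaF arrays lay under all 4 vehicle arrays. The limma change was -0.26 ± 0.07 at 3 h (adjusted p = 0.089, not called), -0.56 ± 0.07 at 6 h (adjusted p = 0.0031) and -0.91 ± 0.07 at 12 h (adjusted p = 0.00038). Against vehicle of the same time Casp6 was 1.91-fold lower at 12 h, short of 2.5-fold. The study used the factor of 2.5, but its cluster figure names non-treated cells as the control, so the baselines may differ.

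Casp9, the initiator on the Apaf1 apoptosome, was measured by 3 probe sets that all stayed under the signal limit, and so was not tested. The brightest, 1368652_at, read 6.43, 6.39 and 6.43 in NaF, against 6.38, 6.48, 6.43 and 6.43 in vehicle. The other two, 1388083_a_at and 1370737_at, differed from vehicle of the same time by -0.04 to 0.11 over the 3 times. NaF and vehicle arrays overlapped on 1368652_at. A change in a transcript read this dimly could have been missed.

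Casp4 was among the members with the widest gap. It read 6.83, 7.32 and 8.56 in NaF at 3, 6 and 12 h, against 6.83, 6.81, 6.69 and 6.64 in vehicle at 0, 3, 6 and 12 h. At 3 h the NaF array was at the level of the brightest vehicle array, and at 6 and 12 h NaF lay above all of them. The limma change was 0.09 ± 0.09 at 3 h (adjusted p = 0.63), 0.58 ± 0.09 at 6 h (adjusted p = 0.0067) and 1.82 ± 0.09 at 12 h (adjusted p = 0.00019). Casp4 was tested only because its NaF arrays reached the signal limit, which favours a higher value there. Its calls at 6 and 12 h remained with no signal limit. Against vehicle of the same time Casp4 was 3.80-fold higher at 12 h.

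Casp12, the ER-associated caspase of rodents, followed with a smaller gap. It read 7.67, 8.29 and 9.01 in NaF, against 7.52, 7.41, 7.86 and 7.89 in vehicle. The vehicle arrays of 6 and 12 h were themselves higher than those of 0 and 3 h, with a range of 0.49 over the 4 arrays, so the change depends on which vehicle is used. NaF was above all vehicle arrays at 6 and 12 h and within them at 3 h. The limma change was 0.62 ± 0.21 at 6 h (adjusted p = 0.061, not called) and 1.34 ± 0.21 at 12 h (adjusted p = 0.0028). Against vehicle of the same time the difference was 0.26, 0.43 and 1.12 at 3, 6 and 12 h, the last of which is 2.17-fold. The study places Casp12, as also Casp4 and Cflar, in a cluster of its 2.5-fold probe sets, on a baseline that may differ from this. For Casp12 the vehicle array of 0 h read lower than that of 12 h, so NaF at 12 h lay further above it.

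Casp1, the caspase that matures interleukin-1β, was not tested. Its probe set 1369186_at read 2.95, 2.99 and 2.99 in NaF, against 3.01, 2.93, 2.92 and 2.99 in vehicle. The groups overlapped, and these signals are too far under the limit of 7 to show a change.

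Cflar was read by a pair of probe sets that both rose at 12 h, by unlike amounts. Probe set 1368545_at read 6.39, 6.73 and 8.80 in NaF at 3, 6 and 12 h, against 6.74, 6.69, 6.28 and 6.13 in vehicle at 0, 3, 6 and 12 h. Probe set 1379919_at read 6.74, 6.97 and 7.17 in NaF, against 6.45, 6.78, 6.74 and 6.67 in vehicle. On 1368545_at only the 12 h NaF array lay above all vehicle arrays, and the vehicle signal itself fell over time, by 0.60 between 0 and 12 h. On 1379919_at the NaF arrays of 6 and 12 h lay above all vehicle arrays. The limma change at 12 h was 2.34 ± 0.25 for 1368545_at (adjusted p = 0.00085) and 0.51 ± 0.13 for 1379919_at (adjusted p = 0.019). Leaving out vehicle at 12 h (adjusted p = 0.051) or the signal limit (adjusted p = 0.062) ended the call of 1379919_at. Against vehicle of the same time at 12 h the first was 6.34-fold and the second 1.41-fold higher. Both Cflar probe sets were tested only because the NaF array of 12 h reached the signal limit, which favours a higher value there. The 12 h call of 1368545_at remained with no signal limit. Which transcripts of Cflar each probe set reads was not analysed here.

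Pycard, the adaptor ASC, fell the furthest of the 8 tested probe sets. It read 7.76, 7.25 and 5.56 in NaF at 3, 6 and 12 h, against 8.12, 8.29, 8.14 and 8.15 in vehicle at 0, 3, 6 and 12 h. Every NaF array lay under every vehicle array, and the vehicle arrays differed among themselves by 0.17 at most. The limma change was -0.41 ± 0.08 at 3 h (adjusted p = 0.042), -0.92 ± 0.08 at 6 h (adjusted p = 0.0012) and -2.62 ± 0.08 at 12 h (adjusted p = 0.00017). Leaving out vehicle at 0 h (adjusted p = 0.070), 6 h (adjusted p = 0.14) or 12 h (adjusted p = 0.11) ended the 3 h call. Against vehicle of the same time Pycard was 6.02-fold lower at 12 h.

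**Figure D2:**
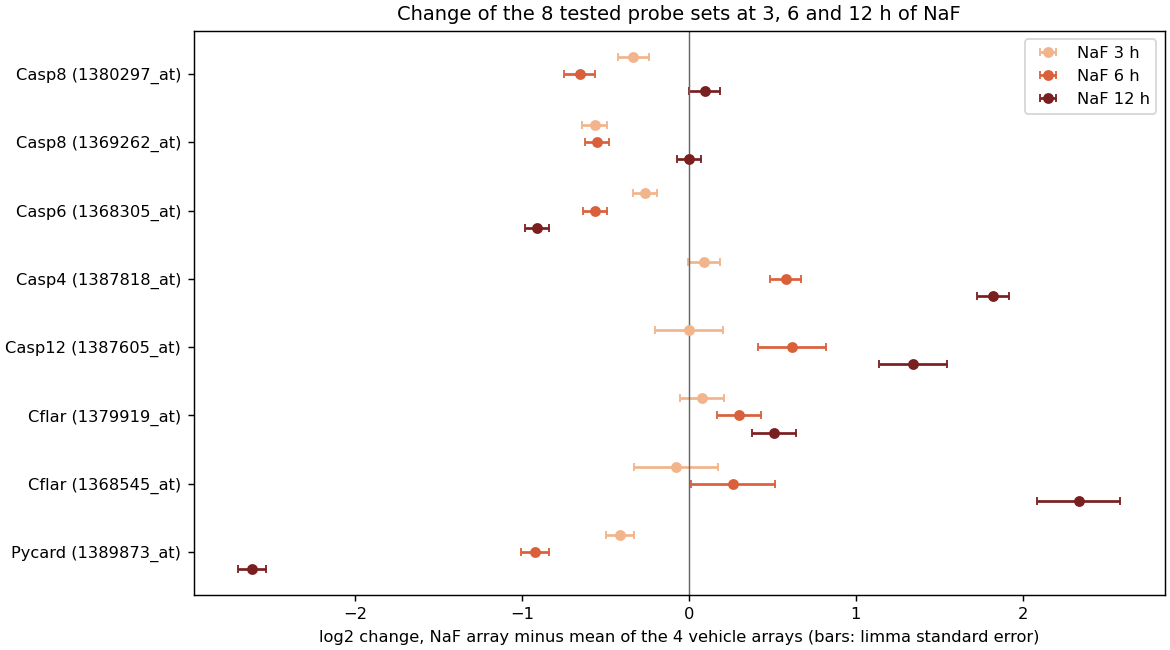
Log2 change of each of the 8 tested probe sets (rows) in the NaF array of 3, 6 or 12 h (light to dark points), relative to the mean of the 4 vehicle arrays (horizontal axis, log2 units); bars are limma's standard errors. Casp8 is left of 0 at 3 and 6 h and at 0.00 and 0.10 at 12 h, while Pycard reaches -2.62 and Cflar 1368545_at 2.34.

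Counted by direction, no member was called higher and 2 of 8 probe sets were called lower at 3 h, where 2.87% and 5.90% of all tested probe sets were called higher and lower. At 6 h 1 was higher and 4 were lower, beside 16.9% and 21.5% of all. At 12 h 4 were higher (50% of the 8) and 2 were lower (25%), beside 29.7% and 30.8% of all, and 3 of those 4 were the probe sets that passed the signal limit only through NaF. The median change of the 8 probe sets was -0.17, -0.14 and 0.30 at 3, 6 and 12 h, against medians of -0.01, 0.01 and 0.00 over all tested probe sets. Past 2.5-fold of the time-matched vehicle there was no member at 3 h (0.272% of all probe sets higher and 0.365% lower) or at 6 h (1.27% and 1.28%). At 12 h, Casp4 and Cflar 1368545_at were past it upwards (2.76% of all) and Pycard downwards (2.09% of all).

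Between the NaF arrays of 12 and 3 h, limma called 5 of the 8 probe sets higher at 12 h (25.0% of all) and 2 lower (23.5% of all). The differences were 1.73 ± 0.12 for Casp4, 1.34 ± 0.26 for Casp12, 2.41 ± 0.32 for Cflar 1368545_at, 0.57 ± 0.09 and 0.43 ± 0.12 for the Casp8 probe sets, -0.65 ± 0.09 for Casp6 and -2.21 ± 0.11 for Pycard. For Cflar 1379919_at the difference was 0.43 ± 0.17 and was not called (adjusted p = 0.081). With the 3 NaF arrays taken as 1 group against the 4 vehicle arrays, limma called 0 of the 8 in either direction (4.34% of all higher and 4.30% lower), and 3 had an unadjusted p under 0.05. In that fit the times of NaF make up its spread, and Casp6 came closest (-0.58 ± 0.15, adjusted p = 0.050). Without the NaF array of 3 h it called 3 members higher and 2 lower, where 14.3% and 14.0% of all probe sets were called. Without that of 12 h it called 4 members lower, where 10.5% of all were.

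The apoptotic and inflammatory caspases are set side by side as a description of 2 tested genes on each side. Casp4 entered the inflammatory mean only because its NaF arrays passed the signal limit, and Casp1 and Casp9 were left out by that limit, so part of the gap is set by which genes were tested. Averaged over Casp4 and Casp12, the signal relative to the mean of the vehicle arrays was 0.05, 0.60 and 1.58 in NaF at 3, 6 and 12 h, against -0.10 to 0.07 in the vehicle arrays. Averaged over Casp8 and Casp6, it was -0.35, -0.58 and -0.43 in NaF, against -0.03 to 0.04 in vehicle. The inflammatory minus the apoptotic mean therefore differed from vehicle of the same time by 0.54, 1.09 and 1.96 log2 units at 3, 6 and 12 h. Of this, the apoptotic pair differed from vehicle of the same time by -0.40, -0.55 and -0.44 and the inflammatory pair by 0.14, 0.53 and 1.52. Over all 3 genes of each class, those under the limit included, the difference at 12 h was 1.31, and with Casp12 alone against Casp8 and Casp6, the genes that reached the limit in vehicle, it was 1.56. The class means hide a split within the apoptotic pair at 12 h, where Casp6 was lower and Casp8 was not.

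**Figure D3:**
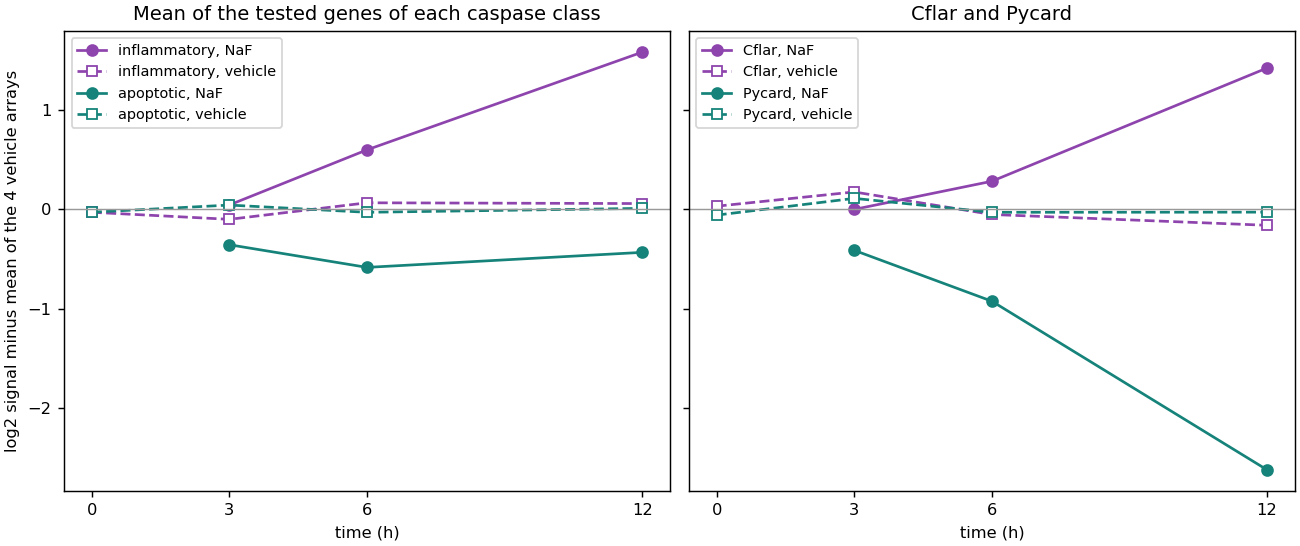
Log2 signal relative to the mean of the 4 vehicle arrays (vertical axis) against time in h, with NaF as filled circles and vehicle as open squares: left, the mean of Casp4 and Casp12 (inflammatory) and of Casp8 and Casp6 (apoptotic), and right, Cflar (mean of its probe sets) and Pycard. Each point is 1 array; at 12 h the inflammatory mean is at 1.58 and the apoptotic mean at -0.43 in NaF, and Cflar is at 1.42 and Pycard at -2.62.

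Some of the genes were also compared with each other on the same arrays. Cflar relative to Casp8, the protein it restrains, differed from vehicle of the same time by 0.29, 0.93 and 1.53 log2 units at 3, 6 and 12 h. In the vehicle arrays this measure ranged over -0.16 to 0.15. At 3 and 6 h the lower Casp8 signal gave more of the shift in NaF, and at 12 h it was Cflar, since Casp8 was at 0.05 there. Casp4 and Pycard moved in opposite directions on these arrays, which makes the gap between them wide. Casp4 relative to Pycard differed by 0.55, 1.52 and 4.52, and in vehicle it ranged over -0.08 to 0.15. Casp4 and both Cflar probe sets were tested only because they were bright in NaF, so the upward side of these shifts is in part set by the signal limit. These are shifts of one gene's mean over its tested probe sets against another's, and say nothing of protein ratios. The Cflar probe sets differed from vehicle of 12 h by 2.66 (1368545_at) and 0.50 (1379919_at), so their mean hides unlike changes.

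The genes these caspases work with were counted on lists by role. Each of them, and each cell type marker below, was read at its probe set of highest mean signal over the 7 arrays. Lmnb1 had 3 probe sets and Casp2, Apaf1, Xiap, Lmna and Il1a had 2 each, of which the dimmer ones are not given here. Of 56 listed symbols (Gsdme and its older name Dfna5 both counted) 40 had a probe set with a single symbol and 29 passed the signal limit, and at 12 h 8 of the 29 were called higher (27.6%) and 11 lower (37.9%), beside 29.7% and 30.8% of all. Casp2, another initiator caspase, was lower at 12 h (-0.86 ± 0.12, limma adjusted p = 0.0020). Among the platforms that activate caspases 5 of 7 were lower at 6 h, beside 21.5% of all probe sets, and at 12 h none was higher and 2 were lower, Apaf1, which holds caspase-9 (-0.92 ± 0.16, adjusted p = 0.0043), and Tradd, an adaptor of the TNF receptor (-0.41 ± 0.09, adjusted p = 0.011).

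Of 6 tested inhibitors of caspases and their antagonists 3 were higher and 2 lower at 12 h, beside 29.7% and 30.8% of all probe sets. Birc3 and Birc2, ubiquitin ligases of the TNF receptor complex, were higher by 0.87 ± 0.13 and 0.73 ± 0.10 (limma adjusted p = 0.0028 and 0.0018). Birc5, or survivin, was lower at -0.81 ± 0.08, and Xiap, a direct inhibitor of executioner caspases, at -0.33 ± 0.07 (adjusted p = 0.00065 and 0.0091). The other gene called higher was Htra2, an antagonist of such inhibitors, at 0.20 ± 0.06. The list thus had inhibitors on both sides of 0. Of 5 tested substrates of executioner caspases 2 were lower and none higher, beside 30.8% and 29.7% of all. The lower ones were Lmnb1 (-1.15 ± 0.09) and Lmna (-0.47 ± 0.06), which encode lamins.

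Of the inflammasome sensors on the array, 3 genes were found and all of them were under the signal limit. Il1b and Il18, for the cytokines that caspase-1 matures, were also under it and were not tested. Il1b read 3.51 to 3.97 in NaF and 3.54 to 3.61 in vehicle, and Il18 2.57 to 3.40 and 2.84 to 3.08. Gsdmd reached the limit only in the vehicle array of 3 h (7.05), which favours a lower value in NaF. Of 3 tested substrates and products, Il1a, encoding the cytokine interleukin-1α, was higher at 12 h (1.40 ± 0.45, limma adjusted p = 0.038), and Gsdmd, the pore-forming gasdermin D, was lower (-0.41 ± 0.09, adjusted p = 0.012). Leaving out vehicle at 0 h (adjusted p = 0.060), 6 h (0.089) or 12 h (0.051), or the signal limit (0.11), ended the Il1a call. Genes with links to caspase-12 at the ER were called at 12 h in 4 of 7 cases higher and in 3 lower, where 29.7% and 30.8% of all probe sets were called. Ddit3, the transcription factor CHOP, was higher by 3.28 ± 0.08, Hspa5, the ER chaperone BiP, by 1.68 ± 0.17 and Eif2ak3, the ER stress kinase PERK, by 0.99 ± 0.10, while Capn1, a calpain subunit, was lower at -0.75 ± 0.07.

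**Figure D4:**
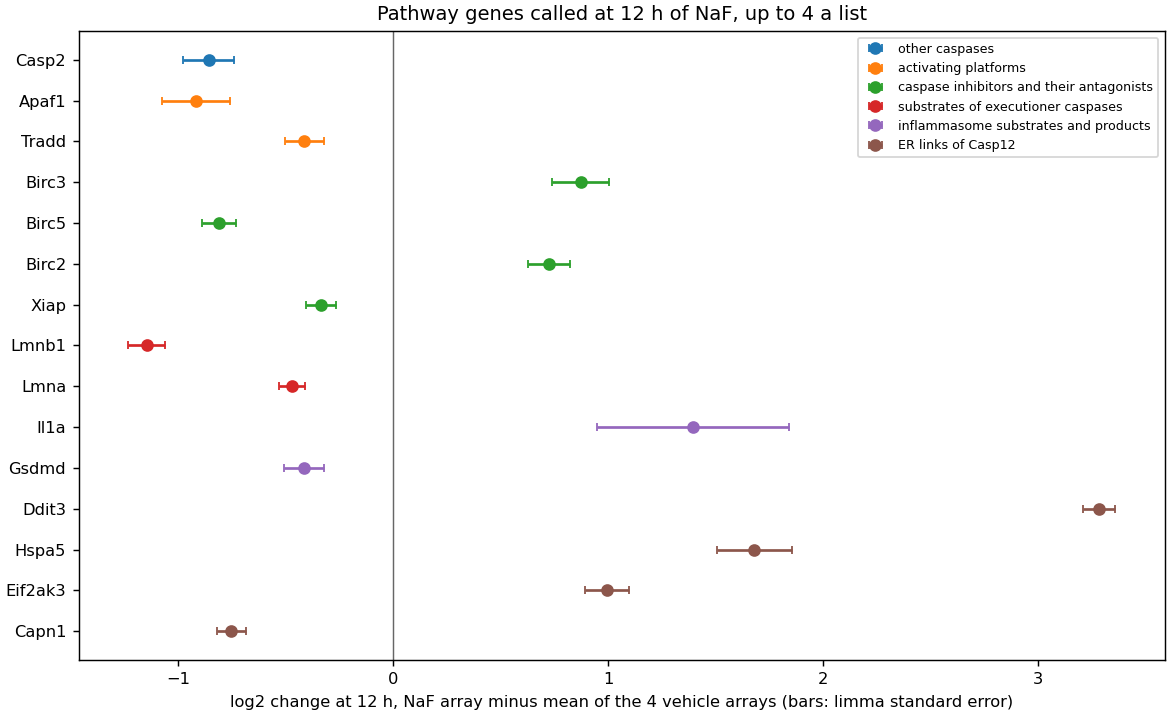
Log2 change at 12 h of NaF relative to the mean of the 4 vehicle arrays (horizontal axis) for the pathway genes that passed the test, up to 4 a list, coloured by list; bars are limma's standard errors. Ddit3 at 3.28 and Hspa5 at 1.68 lie furthest right and Lmnb1 at -1.15 furthest left.

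The probe sets whose course over the 7 arrays was most like that of a member past 2.5-fold were found by Pearson's r among the 9771 tested probe sets with a single symbol. For Casp4 they were Trappc13 (r = 0.9975), Crls1 (r = 0.9965) and Ube2g2 (r = 0.9962). For Cflar 1368545_at they were Twnk (r = 0.9938), Pisd (r = 0.9913) and Lenep (r = 0.9911), and for Pycard they were Mrpl33 (r = 0.9981), Ociad2 (r = 0.9967) and Klk10 (r = 0.9966). The 7 points are the same arrays for every gene, with the same 3 NaF arrays among them, so these likenesses are a description.

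The labelled cell type was checked against marker genes. Of 19 epithelial markers on the array 17 had a vehicle signal of at least 7, Krt5 and Krt14 among them, and the log2 of their summed signal was 16.1 to 16.4 in NaF and 16.4 in vehicle. At 12 h 12 of the 17 were called lower and 1 higher by limma, beside 30.8% and 29.7% of all probe sets. The median change of the 17 was -0.38. These marker changes lay on the same 12 h array as those of Casp4, Casp12, Casp6, Cflar and Pycard. Their part in the member changes was not tested. Of 11 leukocyte markers only Cd14 reached 7 (8.78 to 9.36 in NaF and 9.99 to 10.1 in vehicle), and Ptprc, the pan-leukocyte marker, stayed at 2.85 to 3.27 in all arrays. Their summed signal, most of it from Cd14, was 9.42 to 9.81 in NaF and 10.3 to 10.4 in vehicle. Other leukocyte markers went the other way at low signal, with Lyz2 at 5.12 to 5.69 in NaF and 4.45 to 5.01 in vehicle, and Fcer1g at 3.89 to 4.69 in NaF and 3.85 to 4.18 in vehicle. None of 8 fibroblast markers reached 7 (sums of 6.92 to 7.02 in NaF and 6.87 to 7.04 in vehicle), nor more than 1 of the 8 muscle markers (10.4 to 10.7 and 9.90 to 10.2) or of the 5 endothelial markers (7.45 to 7.72 and 7.62 to 7.74). The muscle marker was Myh1, at 10.2 to 10.4 in NaF and 9.48 to 9.86 in vehicle. Its limma change was 0.56 ± 0.17, 0.78 ± 0.17 and 0.50 ± 0.17 at 3, 6 and 12 h. Fewer cells that make a transcript and less of it per cell cannot be told apart in such RNA. The gap between 3′ and 5′ actin probe sets, a sign of RNA quality, was 1.77 to 2.39 log2 units in NaF and 1.53 to 2.83 in vehicle, so the groups overlapped. Exactly repeated values were common, with 50.8% of all probe sets and 6 of these 12 holding the same value on at least 2 arrays; how they arose was not tested.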

How the data were processed

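ROE2 cells were profiled on 7 arrays from 500 ng of total RNA each, after pooling 3 experiments per array. The deposited values are log2 signals that the authors had already normalized; GeneSpring GX is named by the study, and the normalization method is not given in the sources used here. Groups came from the sample labels; the 0 h of the first vehicle array came from the study's methods, since its label says control. Gene symbols came from the platform annotation, in which 20832 probe sets had 1 symbol, 436 several and 9831 none. Promoters came from RefSeq.

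From these values, limma 3.58.1 (R 4.3.3) was fitted with the spread of the 4 vehicle arrays (3 residual and 2.67 prior degrees of freedom) to 11769 probe sets with a highest log2 signal of at least 7, with Benjamini-Hochberg adjustment. P-values therefore measure only the spread between vehicle arrays of different times, which may be technical. Differences from the time-matched vehicle carry no test. All member probe sets were named, with up to 4 genes per pathway list called at 12 h and the 3 probe sets most like each member past 2.5-fold. Htra2 was named beyond that limit. The members and lists were chosen with earlier results of these data known. The number of arrays limits the precision. The fit was checked on simulated data. Alternatives changed the signal limit, the scaling, the variance prior, the fold, the baseline and the arrays used.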

Additional observations from a re-analysis of the deposited data

Results flagged for a closer look

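Under the same spread, the difference between NaF at 12 h and NaF at 3 h passed limma's test for 7 probe sets. It was 2.41 for Cflar 1368545_at, 1.73 for Casp4, 1.34 for Casp12, 0.57 and 0.43 for the Casp8 probe sets 1369262_at and 1380297_at, -0.65 for Casp6 and -2.21 for Pycard. Each time is 1 array, so the time and the array cannot be told apart.

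The Casp9 probe set 1370737_at stood out for 1 vehicle array, that of 3 h, which read 3.26 while the other 3 read 3.36; its gap to the nearest of them was the whole range of the group (a ratio of 1). The other 3 arrays hold exactly the same value, which gives this ratio whatever the size of the gap, and the probe set is under the signal limit.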

How the results depend on the processing

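With 1 array per group and time, precision rests on 4 vehicle arrays of pooled RNA. Calls at 12 h of Casp4, Casp12, Cflar 1368545_at, Casp6 and Pycard held under every alternative that tested them. The count called higher at 12 h (4) was 2 when the mean signal had to be at least 7, which leaves out both Cflar probe sets. The count called higher at 6 h (1) was 3 with quantile normalization and 2 with a variance trend, where 20.6% and 18.6% of all were called. The count called lower at 3 h (2) was 0 with no signal limit, 1 with array medians set equal and 0 to 2 when 1 vehicle array was left out. With the 3 NaF arrays as 1 group (0 called), leaving out 1 array gave 0 to 3 higher and 0 to 4 lower, while the share of all probe sets called ran over 0.391% to 14.3% higher and 0.102% to 14.0% lower. Pairing NaF with vehicle by time, at 3, 6 and 12 h, gave 0 calls in either direction among the members and among all probe sets. Values near 0 changed sign. At 12 h Casp8 1369262_at was -0.0143 with quantile normalization and -0.0227 to 0.0206 when 1 vehicle array was left out. At 3 h, leaving out 1 vehicle array gave -0.0876 to 0.0752 for Casp12 and -0.185 to 0.0165 for Cflar 1368545_at. The gap between inflammatory and apoptotic caspases over other genes of each class was added after seeing the data. The cause of these shifts was not tested.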
